A study of Rattus norvegicus with 80 samples.

Results

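The genes described here are 308 of 32883 rat gene identifiers, those most enriched in cultured mammary epithelial cells (MECs) of wildtype rats. They were chosen by their levels in wildtype cells alone: a gene was taken when its mean level in the 3 wildtype MEC libraries was at least 4 CPM (counts of a gene per 1000000 counts of its library) and, with 0.1 CPM added to every mean, at least 16 times its mean in both wildtype adipocytes and wildtype fibroblasts. They are called MEC-enriched genes. The same rule turned round gave 295 adipocyte-enriched and 32 fibroblast-enriched genes, which serve as a measure of the other cell types.

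The mammary gland is a branched double layer of epithelium, with an inner luminal layer that can secrete milk and an outer basal or myoepithelial layer, set in a pad of fat and connective tissue. Epithelial cells are held together by junction proteins and keratins that fat cells and fibroblasts largely lack. Mammary carcinomas arise from this epithelium, and they can keep, raise or lose the genes that mark it.

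RNA was sequenced in 80 libraries of Rattus norvegicus. Whole mammary pads came from 6 wildtype, 3 IF, 6 PS and 6 IFPS samples, and primary tumors came from 5 IF, 9 PS and 9 IFPS samples. MECs, adipocytes and fibroblasts had 3 samples each from wildtype rats and from every line. IF, PS and IFPS are the labels' names for 3 Nf1-mutated lines. Nf1 encodes neurofibromin, which turns Ras signaling down. The labels do not spell out the alleles, the age of the animals or any treatment. All 3 groups of tumors are from mutated lines, so no wildtype tumor stands beside them. The series' design text calls the normal cell types flow sorted. MECs and fibroblasts were grown in culture to near confluency before their RNA was taken, while pads, tumors and adipocytes were not described as cultured, so tissue and culture cannot be told apart in any comparison between them. The labels do not say whether samples of a group are separate animals, and p-values then measure the spread between these samples only. Samples are numbered within their group. The deposited table names genes by Ensembl identifiers, and none of these could be matched to a gene symbol here. Known roles of single genes, lists of keratins, junction proteins or luminal and basal genes, and a check of each label against its defining markers were therefore not analysed here, and 4 genes are named by identifier.

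Library totals ranged from 17344717 to 37293141 counts over the 80 libraries. IFPS tumors 6, 8 and 9 stood apart before any test. In IFPS tumor 6 the MEC-enriched genes summed to 3703 CPM and the adipocyte-enriched genes to 95266 CPM, more than in any of the 21 pads. In IFPS tumor 8 the MEC-enriched genes summed to 6066 CPM and in IFPS tumor 9 to 644 CPM, against 31215 to 41857 CPM in the other 6 IFPS tumors. IF adipocytes 1 and 3 held 6001 and 5669 CPM of MEC-enriched genes, and no other adipocyte library held more than 769 CPM. IF tumor 2 and IFPS tumor 5 held 6832 and 7392 CPM of fibroblast-enriched genes, while the other tumors held 144 to 3016 CPM. Counts of genes called that rest on the 3 IFPS tumors or the 2 IF adipocyte libraries are given with and without them.

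The values that chose the genes are a description and carry no test. Mean levels in wildtype MECs ran from 4.02 to 1680 CPM with a median of 23.1 CPM. Of the 308 genes, 51 stood at 100 CPM or more, 176 between 10 and 100 CPM and 81 below 10 CPM. The smaller of the ratios to adipocytes and fibroblasts ran from 16.2 to 1896, with a median of 32.8. The closer of these cell types was the fibroblast for 194 genes and the adipocyte for 114. Just inside the fold limit the smaller ratios were 16.17, 16.21 and 16.28, and just outside it they were 15.86, 15.96 and 15.99. Just inside the level limit the wildtype MEC means were 4.02, 4.07 and 4.13 CPM, and just outside it they were 3.83, 3.85 and 3.98 CPM.

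The enrichment was present in cells of the mutated lines, which the rule did not use. All 308 genes were higher in MECs than in fibroblasts of the same line in IF, PS and IFPS, where 30.4%, 32% and 26.7% of all genes tested were higher. None was lower, against 32.9%, 35.5% and 29.5% of all genes tested. The median log2 fold changes were 5.49, 5.47 and 4.43. All 308 were also higher in MECs than in adipocytes of PS and IFPS, where 38.2% and 38.3% of all genes tested were higher and 36.6% and 36.7% lower, and the medians were 7.82 and 7.44. In IF, 282 of 308 were higher and 2 were lower in MECs than in adipocytes, against 35.3% and 36.6% of all genes tested, and the median was 2.51. Without IF adipocytes 1 and 3 the counts were 305 higher and 0 lower, and with the title number of the samples as a replicate block they were 287 and 0. IF adipocytes 1 and 3 were left out for their high levels of these same genes. The lower count was 0 without IF adipocyte 3 and 7 without IF adipocyte 2. Of the 2 lower genes one ranged from 37.9 to 999.9 CPM in IF adipocytes with a median of 247 CPM, against 92.0 to 179 CPM in IF MECs. These calls are from edgeR's quasi-likelihood test at an adjusted p under 0.05, without pairing of samples except where the block is named. Genes were tested only with a minimum count in as many libraries as the smallest group holds. A gene near zero in adipocytes and fibroblasts could pass this filter through its MECs alone, which favored a higher value there. How many genes passed in this way was not counted, so these counts are a description.

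Fewer genes kept the full 16-fold margin in every line. Against fibroblasts it was kept by 292 genes in IF, 296 in PS and 206 in IFPS. Against adipocytes it was kept by 77 genes in IF, 305 in PS and 306 in IFPS. IFPS fibroblasts 1, 2 and 3 had 146, 103 and 139 of the genes at 1 CPM or more, where the other fibroblast libraries had 65 to 107. The level limit of 4 CPM was still met by 304, 301 and 303 genes in IF, PS and IFPS MECs. All 308 genes reached 1 CPM in each of the 12 MEC libraries.

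Pads and tumors carried most of these genes. Between 237 and 268 of the 308 reached 1 CPM in a pad. In the tumors of PS the range was 267 to 279, in those of IF it was 241 to 268, and in the 6 IFPS tumors without 6, 8 and 9 it was 272 to 281. IFPS tumors 6, 8 and 9 had 220, 98 and 82 genes at that level, and in IFPS tumor 9 as many as 98 genes had no count. The summed level was 5291 to 19903 CPM in wildtype pads, 8365 to 12111 in IF pads, 9613 to 23024 in PS pads and 7858 to 19498 in IFPS pads. Sums were 51733 to 86553 CPM in IF tumors and 29386 to 41137 CPM in PS tumors, above every pad, while the MEC libraries themselves held 22259 to 29195 CPM. In whole tissue, fewer cells of a type and less RNA per cell cannot be told apart. The adipocyte-enriched genes summed to 26106 to 77594 CPM in pads and to 4611 to 16053 CPM in all tumors but IFPS tumor 6, and their part in the tumor-pad differences was not tested.

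**Figure D1:**
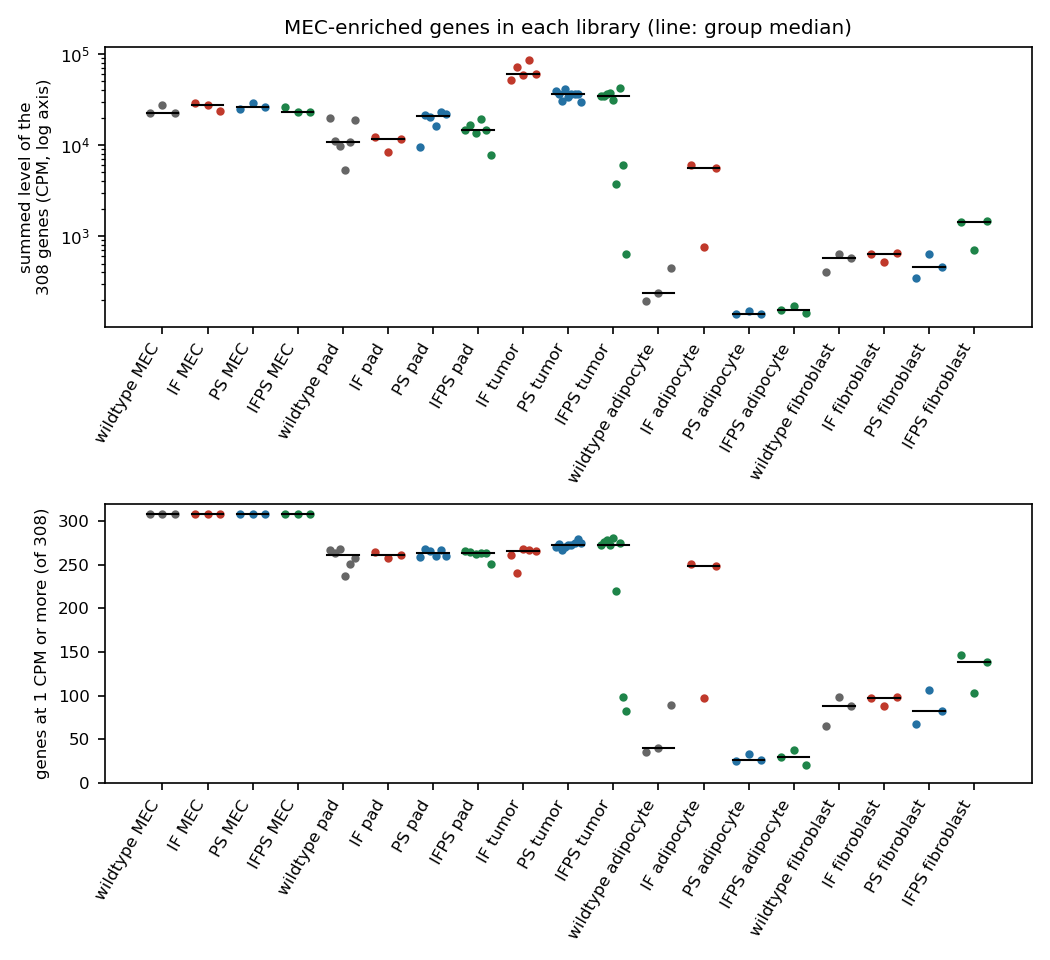
Summed level of the 308 MEC-enriched genes (upper panel, CPM, log axis) and number of these genes at 1 CPM or more (lower panel) in each of the 80 libraries. Each point is a library, each line a group median, and colors mark the lines of rats. IFPS tumors 6, 8 and 9 lie below the other tumors in both panels, and IF adipocytes 1 and 3 lie above the other adipocytes.

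The median MEC-enriched gene of a library gives less weight to single genes. It stood at 4.55 to 21.7 CPM in pads, at 34.98 to 45.5 CPM in PS tumors and at 30.4 to 36.8 CPM in the 6 other IFPS tumors. IF tumors ranged from 11.9 CPM in tumor 2 to 36.7 CPM in tumor 5, and IF tumors 1 and 2, at 20.8 and 11.9 CPM, lay within the range of the pads. IFPS tumors 6, 8 and 9 had medians of 2.80, 0.367 and 0.165 CPM, below every pad. The ranges of IF and PS tumors did not overlap in the sum and overlapped in the median. In IF tumors the 3 leading genes of each library held 43.4% to 79.8% of all counts of MEC-enriched genes, and in PS tumors they held 10.3% to 20.8%.

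Tumors were compared with pads of their own line by one edgeR fit of the 3 lines. Of the 308 genes, 297 passed the filter on low counts, which asks for a minimum count in as many libraries as the smallest group holds. A gene that passed only through its tumors had to be higher there, so the counts are not a share of all 308 genes. In the pads of the 3 lines alone 287 of the 297 passed the same filter. In PS 111 genes rose and 9 fell, against 18.1% and 20.8% of all genes tested. That is 37.4% and 3.03% of the 297. In IFPS 50 genes rose and 9 fell, or 16.8% and 3.03%, against 15.6% and 12.3% of all genes. In IF 27 rose and 4 fell, or 9.09% and 1.35%, against 10.1% and 13.2% of all genes. The share called higher was near that of all genes in IF and IFPS. Median standard errors in this fit were larger for the 297 than for all genes, at 0.93 against 0.39 for IF tumors. They were 0.65 against 0.28 for IFPS tumors. Fits of only the 2 groups compared called 125 MEC-enriched genes higher for IF tumors and 22 for IFPS tumors. Similar shares of calls therefore do not show that these genes rose no more often than others. Median log2 fold changes of the 297 were 1.29 in IF, 1.30 in PS and 0.84 in IFPS. Over all genes tested the medians were 0.05, 0.01 and 0.09.

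Over the 297 genes the median SD of log2 levels was 2.89 in the 9 IFPS tumors and 0.53 in the 6 without tumors 6, 8 and 9. These 3 tumors were set apart by their low sums of the same genes. Leaving them out thus favors higher values in IFPS and a smaller spread in the fit that the lines share. Counts without them are therefore a description. Without these tumors 163 genes rose and 8 fell in IF, 213 rose and 13 fell in PS, and 203 rose and 11 fell in IFPS. The shares of all genes that rose were then 21%, 26.4% and 24.6%, and the shares that fell were 20.2%, 25.7% and 25%. The median of the 297 in IFPS went from 0.84 to 1.28, and those of IF and PS were 1.32 and 1.31. Median standard errors of the 297 went from 0.93 to 0.53 in IF, from 0.66 to 0.38 in PS and from 0.65 to 0.41 in IFPS. All 27 genes called higher in IF with every tumor were called again, as were all 111 in PS and 49 of 50 in IFPS.

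Fits with fewer pads over all lines gave fewer calls. The fit with pads 1 to 12 kept every IF pad and IF tumor, so the IF count moved there with no IF library left out. With pads of title numbers 1 to 12 alone 12 genes rose in IF, 9 in PS and 2 in IFPS. That is 4.04%, 3.03% and 0.673% of the 297, below the 7.31%, 6.42% and 2.65% of all genes tested that rose there. The medians of the 297 were 1.29, 1.26 and 0.71 with these pads. With pads 13 to 21 alone 22 rose in PS and 9 in IFPS, or 7.41% and 3.03%, against 7.13% and 5.39% of all genes. All 3 IF pads belong to the first set, so no comparison across sets can be made in IF. Leaving out IF pad 1, 2 or 3 left 8, 4 and 5 genes higher in IF, and leaving out IFPS tumor 6, 8 or 9 gave 44, 58 and 67. In PS the count was 72 without PS pad 1, 167 without IFPS tumor 8 and 169 without IFPS tumor 9. In IFPS it was 79 without IFPS tumor 8 and 96 without IFPS tumor 9. The shares of all genes are not given here for the fits without 1 library. Those counts therefore cannot be read as a result about these genes alone.

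**Figure D2:**
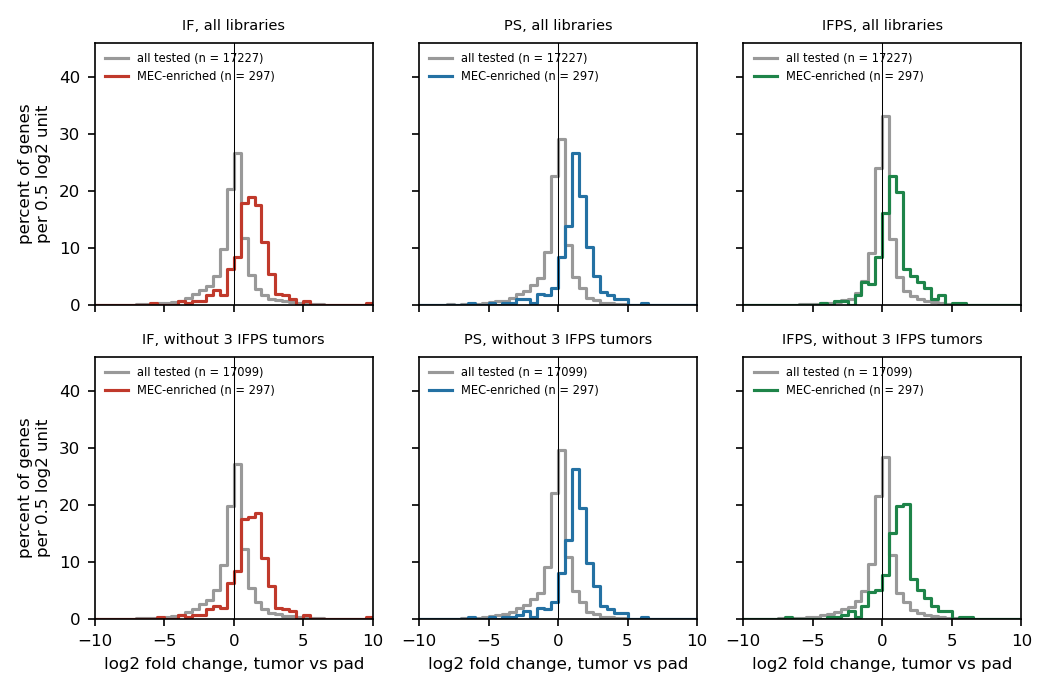
Distribution of log2 fold changes, tumor against pad of the same line, for the 297 MEC-enriched genes tested (colored) and for all genes tested (grey), as percent of genes per bin of 0.5 log2 unit. The upper row uses all libraries and the lower row leaves out IFPS tumors 6, 8 and 9, where the IFPS median is 1.28 in place of 0.84. Values beyond the axis are not drawn.

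Levels were also compared without a model. In PS 114 of the 297 genes had all 9 tumors above all 6 pads and 5 had all tumors below, against 13.8% and 8.92% of all genes tested. In IF 107 genes had all 5 tumors above all 3 pads and 9 had all below, against 14% and 16% of all genes. In IFPS 0 genes had all 9 tumors above the pads and 2 had all below, against 1.47% and 1.89% of all genes. With the 6 other IFPS tumors 175 genes lay above and 5 below, against 20.5% and 11.4%.

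Each tumor was also set against the pads of its line alone. PS tumors had 204 to 234 of the 308 genes above every PS pad and 14 to 30 below every one. The 6 other IFPS tumors had 218 to 233 above and 17 to 28 below. IF tumors 1, 3, 4 and 5 had 195 to 245 above and 28 to 67 below, and IF tumor 2 had 129 above and 120 below. IFPS tumors 6, 8 and 9 had 13, 34 and 9 genes above every pad and 241, 237 and 270 below. Many genes of any kind lay outside the range of the pads in a single tumor. In PS tumors 68.4% to 77.4% of the 297 genes tested lay above every pad, against 35% to 44.7% of all genes tested, and 4.71% to 10.1% lay below, against 21.8% to 30.2%. In the 6 other IFPS tumors the shares above were 72.4% to 77.8% and 36.1% to 45.3%, and those below were 5.72% to 9.43% and 22.5% to 25.4%. In IF tumors 1, 3, 4 and 5 the shares above were 65.7% to 82.2% and 42.6% to 49.4%, and those below were 9.09% to 22.2% and 29.6% to 34.7%. IF tumor 2 had 43.1% of the 297 above and 40.1% below, against 25.8% and 55.4% of all genes. Below every pad lay 81.1%, 79.8% and 90.9% of the 297 in IFPS tumors 6, 8 and 9, against 39%, 36.2% and 50.9% of all genes.

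**Figure D3:**
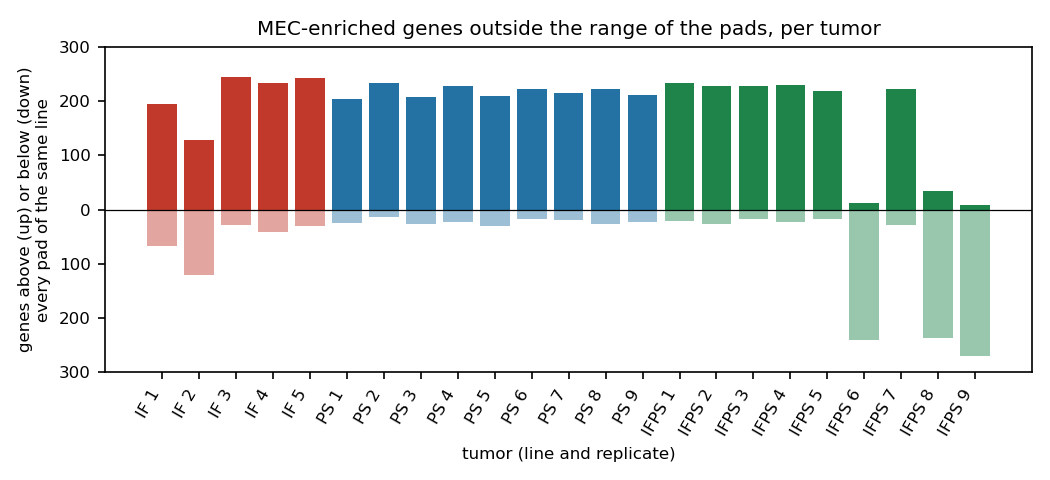
Number of the 308 MEC-enriched genes that lay above every pad of the same line (solid bars, up) or below every pad (pale bars, down) in each of the 23 tumors. IFPS tumors 6, 8 and 9 have 241, 237 and 270 genes below every pad, where PS tumors have 14 to 30. Of all genes tested, 39%, 36.2% and 50.9% lie below every pad in these 3 tumors and 21.8% to 30.2% in PS tumors.

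Most MEC-enriched genes were low in IFPS tumors 8 and 9. In both tumors 184 genes lay under 1 CPM, and 111 of these reached 1 CPM in every one of the other 7 IFPS tumors. Only 6 genes reached 10 CPM in both. The highest gene of IFPS tumor 8 stood at 1519 CPM, within the range of the MEC libraries, where this gene was the one with the second highest wildtype mean, 1358 CPM ± 86.3 (SD, n = 3). The highest gene of IFPS tumor 9 stood at 85.7 CPM, and 13 genes of that library reached 10 CPM. In IFPS tumor 6 the highest gene stood at 738 CPM and 55 genes reached 10 CPM.

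Set against MECs of their own line, the median gene lay closer to the MEC level in tumors than in pads, which did not hold for every gene. The ratio of a gene's median in tumors to its mean in MECs had a median over the 308 genes of 0.934 in IF, 1.23 in PS and 1.04 in IFPS. For pads this ratio stood at 0.474 in the wildtype group, 0.393 in the IF group, 0.478 in the PS group and 0.572 in the IFPS group. Tumor medians were at or above the MEC mean for 148 genes in IF, 171 in PS and 158 in IFPS. For 129 genes this was so in all 3 lines. More than 4-fold below the MEC mean lay 90 genes in IF, 58 in PS and 76 in IFPS, 50 of them in all 3 lines. In pads of IF, PS and IFPS 110, 101 and 101 genes lay that far below. At 4 times the MEC mean or more stood 32, 34 and 23 genes in tumors of IF, PS and IFPS. In their pads 7, 10 and 9 genes did. These are descriptions of levels, since MEC libraries come from culture.

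Most of the genes that were near zero in tumors were so in pads too. In tumors of all 3 lines 26 genes had medians under 1 CPM, and in pads of all 4 lines 40 genes did. Both held for 21 genes, whose wildtype MEC levels had a median of 8.23 CPM and reached 468 CPM. Under 1 CPM in tumors of all 3 lines but not in all pads were 5 genes, and 19 genes were under 1 CPM in all pads but not in all tumors. The gene at 468 CPM in wildtype MECs had 363 to 589 CPM in those 3 libraries, 0.0332 to 0.304 CPM in the 21 pads and 0.0414 to 2.30 CPM in the 23 tumors. It was abundant in culture and nearly undetected in tissue.

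**Figure D4:**
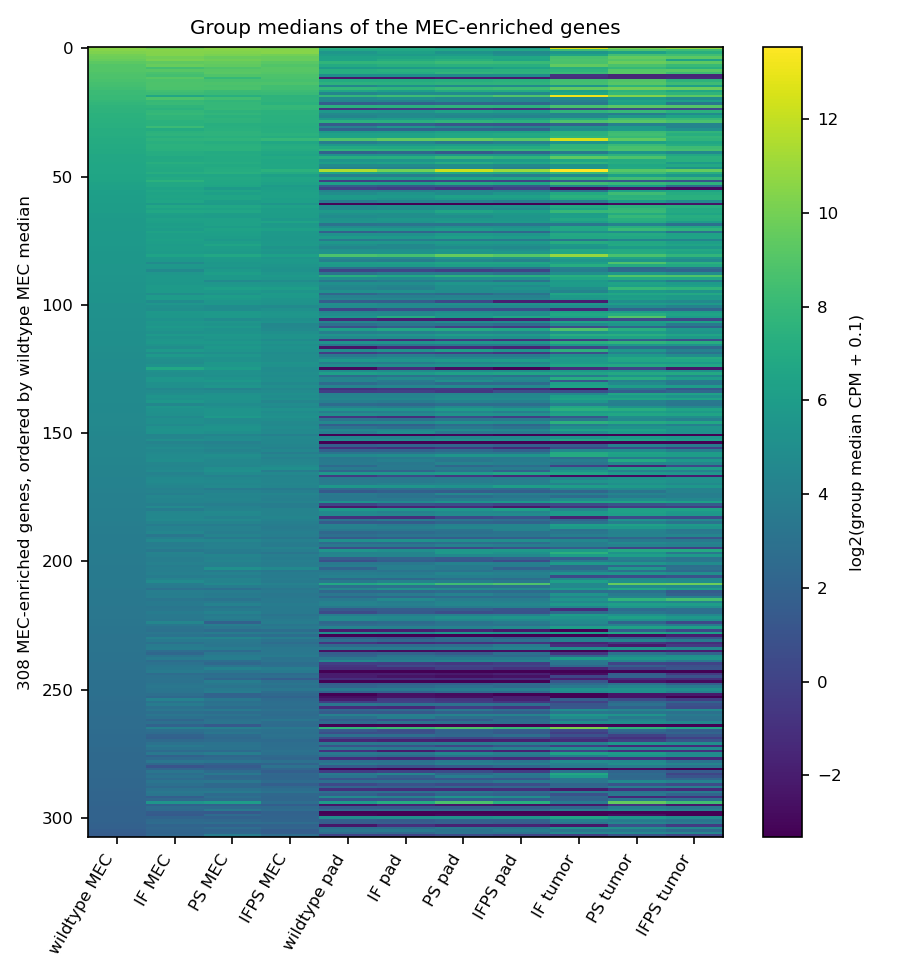
Group medians of the 308 MEC-enriched genes (rows, ordered by their wildtype MEC median) in MECs, pads and tumors (columns), as log2 of the median CPM plus 0.1. Dark rows that run through the pads and tumors include the 21 genes with medians under 1 CPM in both. Bright rows in IF tumors are the few genes that lead there.

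The 11 genes that were not tested in tumors and pads were low there. Their wildtype MEC means ran from 4.25 to 61.8 CPM, and the highest value any of them had in a pad or tumor was 6.92 CPM.

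Across lines the tumor-pad differences mostly pointed upward. Fitted values were above 0 in all 3 lines for 207 of 297 genes and below 0 in all 3 for 6. Above 0 in all 3 were thus 69.7% of the 297, against 35.7% of all genes tested. Called higher in all 3 lines were 4 genes, in 2 lines 45 and in 1 line 86. Called lower in all 3 lines was 1 gene, in 2 lines 4 and in 1 line 11. The shares of the 297 called higher in all 3, in 2 and in 1 were 1.35%, 15.2% and 29%, against 3.65%, 9.18% and 14.5% of all genes. The shares called lower were 0.337%, 1.35% and 3.7%, against 4.99%, 8.98% and 13.4%. Calls in all 3 lines were thus a smaller share of the 297 than of all genes in both directions. Between PS and IFPS 36 genes were called higher in both and not in IF, and the share of all genes with this pattern was not counted. The 3 comparisons come from one fit but share no pads or tumors. Without IFPS tumors 6, 8 and 9, set apart by low levels of these genes, 128 were higher in all 3 lines and 4 lower in all 3. These are 43.1% and 1.35% of the 297, against 11.9% and 14.3% of all genes. In that fit 6 of the genes were called in opposite directions in different lines, and the share of all genes was not counted.

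Of the 4 genes called higher in all 3 lines, 2 are named here, those whose smallest fold change was largest. ENSRNOG00000014710 stood at 15.3, 20.8 and 21.8 CPM in wildtype MECs. Pads ranged from 3.56 to 20.5 CPM over all 4 groups. IF pads stood at 11.5, 8.82 and 6.78 CPM and IF tumors at 68.4, 40.0, 125, 166 and 132 CPM. PS tumors ranged from 61.7 to 166 CPM with a median of 86.2 CPM, and PS pads from 7.38 to 20.5 CPM. Every IF and PS tumor thus lay above every pad and above the wildtype MECs. Among IFPS tumors the range was 0 to 149 CPM with a median of 65.2 CPM, and tumors 6, 8 and 9 were at 3.89, 0.309 and 0 CPM, below the IFPS pads at 5.36 to 13.9 CPM. The log2 fold changes for ENSRNOG00000014710 were 3.44 ± 1.07 (SE) in IF, 2.70 ± 0.73 in PS and 2.41 ± 0.72 in IFPS, at edgeR adjusted p of 0.0205, 0.00459 and 0.0129. Without the 3 IFPS tumors they were 3.47, 2.71 and 2.99, with adjusted p of 3.73e-07, 9.59e-09 and 1.24e-08. The adjusted p in IF was 0.0585, 0.0690 and 0.0824 without IF pad 1, 2 and 3. With pads 1 to 12 alone it was 0.122 in PS and 0.208 in IFPS, with pads 13 to 21 alone 0.0640 and 0.128, and with only the 2 groups compared 0.130 in IFPS.

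ENSRNOG00000036877 stood at 27.6, 28.9 and 29.9 CPM in wildtype MECs and was near the limit of detection in pads. IF pads stood at 0, 0.380 and 0.341 CPM and IF tumors at 41.5, 0.177, 0.333, 4.62 and 0.276 CPM. Only IF tumors 1 and 4 lay above all IF pads. PS pads ranged from 0 to 0.266 CPM and PS tumors from 0 to 4.22 CPM with a median of 0.980 CPM, and the groups overlapped. IFPS pads held 0 to 2 counts each, and IFPS tumors ranged from 0 to 2.21 CPM with a median of 0.102 CPM. The edgeR log2 fold changes for ENSRNOG00000036877 were 5.06 ± 1.80 (SE) in IF, 3.43 ± 1.23 in PS and 4.15 ± 1.53 in IFPS, at edgeR adjusted p of 0.0396, 0.0271 and 0.0399. Fitted folds at such counts depend on the prior count of the model. The gene did not pass the filter on low counts in pads alone, so it was tested only because of its tumors, the filter itself favored a higher value there, and its fitted values are a description. In IF the value was 2.37 with an adjusted p of 0.240 without IF tumor 1, and in IFPS it was 2.59 with an adjusted p of 0.185 without IFPS tumor 7. Without IF pad 2, 3 or 1 the adjusted p in IF was 0.0933, 0.104 and 0.131, and without PS tumor 8 the adjusted p in PS was 0.0574. It was 0.0523 to 0.0556 in PS without PS pad 1, 2 or 3, 0.0688 to 0.0763 in IFPS without IFPS pad 1, 2, 3, 4 or 6, and 0.0520 in IF without IFPS pad 5. With pads 1 to 12 alone it was 0.0734, 0.0530 and 0.169 in the 3 lines, with pads 13 to 21 alone 0.180 in PS and 0.182 in IFPS, and with no filter 0.0526 in IF.

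ENSRNOG00000017686 was the gene called lower in all 3 lines. Wildtype MECs held 607, 461 and 242 CPM and pads of the 4 groups 17.04 to 47.5 CPM. IF pads stood at 23.6, 29.2 and 41.1 CPM and IF tumors at 1.20, 0.310, 0.285, 0.462 and 1.49 CPM. PS tumors ranged from 0.0785 to 0.870 CPM and IFPS tumors from 0.0401 to 6.15 CPM, with medians of 0.256 and 0.266 CPM. All 23 tumors lay below all 21 pads, and the highest tumor values were those of IFPS tumors 9 and 6, at 6.15 and 4.06 CPM. The edgeR log2 fold changes for ENSRNOG00000017686 were -5.50 ± 1.08 (SE) in IF, -6.38 ± 0.83 in PS and -4.18 ± 0.75 in IFPS, at edgeR adjusted p of 0.00108, 3.34e-06 and 0.000188. Without the 3 IFPS tumors the IFPS value was -6.93. All MEC libraries of the mutated lines held 312 to 686 CPM of it, and IF adipocytes 1 and 3 held 145 and 98.9 CPM, where IF adipocyte 2 held 9.01 CPM.

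ENSRNOG00000030318 was called lower in PS and IFPS. It stood at 87.0, 79.8 and 61.2 CPM in wildtype MECs and was low in all tissue, with 0.0409 to 1.88 CPM in PS pads and 0.0346 to 2.51 CPM in IFPS pads. PS tumors ranged from 0 to 0.343 CPM and IFPS tumors from 0 to 0.464 CPM, and in both lines the groups overlapped. The edgeR log2 fold changes for ENSRNOG00000030318 were -2.83 ± 0.97 (SE) in PS and -2.90 ± 0.95 in IFPS, at edgeR adjusted p of 0.0206 and 0.0212. In IF the value was -1.35 ± 1.29 with an adjusted p of 0.448, IF pads stood at 0.920, 0 and 0.725 CPM, and the highest IF tumor stood at 0.998 CPM. The adjusted p in PS was 0.0691 without PS pad 4 and 0.0549 without PS pad 5, and in IFPS it was 0.0714 without IFPS pad 4. With pads 1 to 12 alone the PS value was -1.24 with an adjusted p of 0.492, and the adjusted p in IFPS was 0.120. With pads 13 to 21 alone the adjusted p in IFPS was 0.0580.

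**Figure D5:**
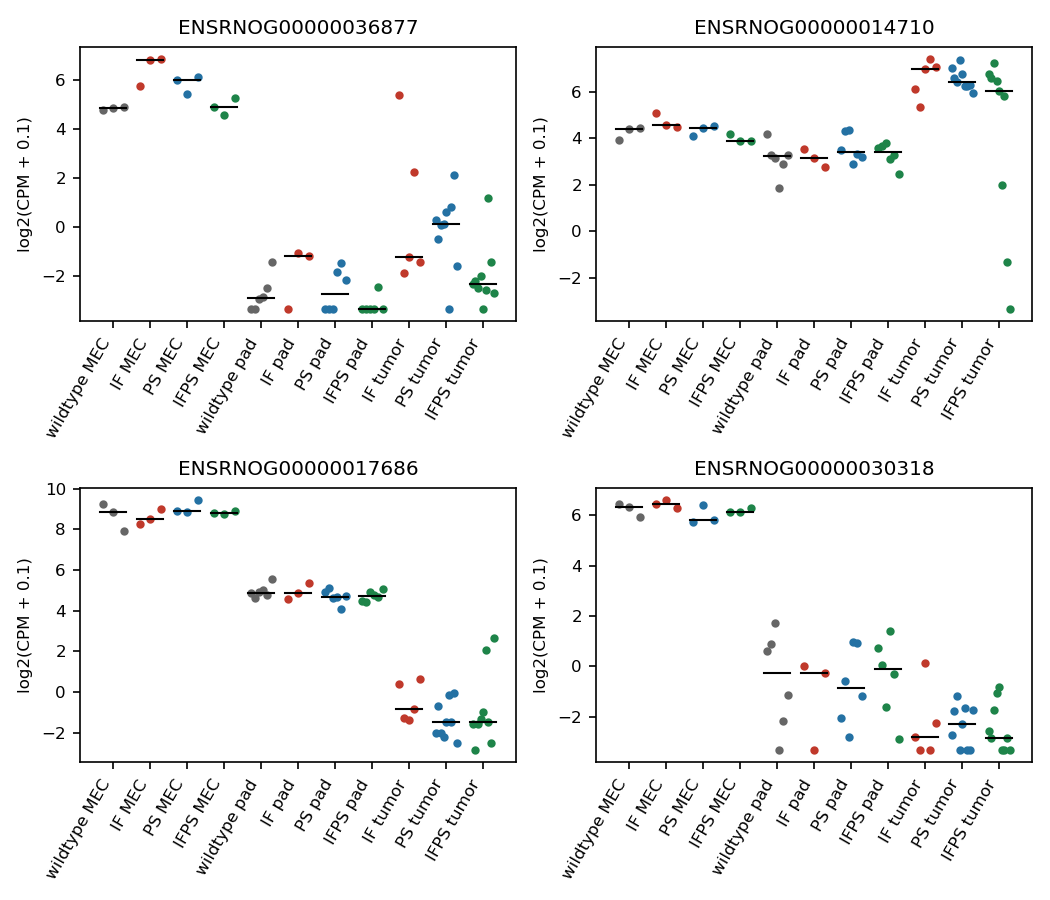
Levels of the 4 genes named by identifier, as log2 of CPM plus 0.1, in every MEC, pad and tumor library. Each point is a library and each line a group median. The 23 tumors lie below all pads for ENSRNOG00000017686, and the IF and PS tumors lie above all pads for ENSRNOG00000014710.

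The genes that led the sums in IF tumors are described without identifiers. The gene with the highest mean there, 17141 CPM, stood at 8943, 35093, 10522, 19279 and 11869 CPM in the 5 IF tumors and at 1245, 490 and 1003 CPM in the 3 IF pads. Its log2 fold change was 4.31 ± 1.45 (SE) with an edgeR adjusted p of 0.0304. The same gene also led the pads, at 986 to 7022 CPM in wildtype and 1114 to 9186 CPM in PS, and it was lower in PS tumors, at 105 to 3130 CPM with a median of 566 CPM. Its change in PS was -2.77 ± 0.85 with an adjusted p of 0.0107, and in IFPS it was -1.66 ± 0.83 with an adjusted p of 0.131. MECs held 92.0 to 242 CPM of it in all 4 groups, so every pad lay above every MEC library. It was 1 of 2 MEC-enriched genes called higher in 1 line and lower in another, and the share of all genes that were so was not counted. For this gene the edgeR tests of the difference between lines gave adjusted p of 0.0652 for PS against IF and 0.0831 for IFPS against IF.

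The second gene of IF tumors, with a mean of 10464 CPM, stood at 3555, 10881, 9101, 20942 and 7842 CPM in the tumors and at 390, 87.7 and 295 CPM in IF pads. It rose in IF by 5.34 ± 1.34 (SE, log2 scale, edgeR adjusted p of 0.00565) and in PS by 2.18 ± 0.80 (adjusted p of 0.0307), where PS tumors had 232 to 3410 CPM. The third, with a mean of 8067 CPM, was also the gene with the highest wildtype MEC mean, 1680 CPM ± 294 (SD, n = 3). It varied widely within groups, from 762 to 14962 CPM in IF tumors and from 110 to 1500 CPM in IF pads, and its change of 3.64 ± 1.98 had an adjusted p of 0.171.

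The other 4 genes with the highest levels in wildtype MECs had means of 1358, 1349, 1104 and 816 CPM in those cells and means of 31.4 to 123 CPM in the pads of the 4 groups. In PS tumors the means were 412, 83.8, 354 and 820 CPM. The last of these was close to its wildtype MEC level there, and the other 3 were below it. The gene at 1358 CPM rose in PS and IFPS by 1.53 ± 0.58 and 1.62 ± 0.59 (SE, log2 scale, edgeR adjusted p of 0.0369 and 0.0372). The gene at 1104 CPM rose by 2.28 ± 0.71 in PS and 2.52 ± 0.72 in IFPS (adjusted p of 0.0114 and 0.00923), and in IF its value was 0.12 ± 0.90 with an adjusted p of 0.934.

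Whether a gene's tumor-pad difference itself differed between lines was tested in the same fit. For PS against IF 0 genes were higher and 1 lower, against 0.0464% and 0.313% of all genes tested. For IFPS against IF 1 was higher and 2 lower, against 0.203% and 0.261%. For IFPS against PS 0 were called in either direction by edgeR, against 0% of all genes in each. An unadjusted edgeR p under 0.05 was found for 20 of the 297, or 6.73% against 13.7% of all genes. DESeq2 called 2 of the 297 higher there, and 200 of all genes. Without IFPS tumors 6, 8 and 9 the counts were 10 higher and 12 lower for PS against IF, and 13 and 16 for IFPS against IF. The shares of all genes were then 0.725% and 1.47% for the first and 1.15% and 1.67% for the second. For IFPS against PS they remained 0 and 0, and the median difference moved from -0.56 to -0.02. The tumors left out had been set apart by their low levels of these same genes.

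These calls concern 3 genes. The gene called in both tests stood at 49.4, 128, 28.3, 83.0 and 60.1 CPM in IF tumors and at 4.27, 1.69 and 3.88 CPM in IF pads. PS tumors held 1.13 to 11.8 CPM and PS pads 1.47 to 40.4 CPM, so every IF tumor lay above every PS tumor. Its tumor-pad difference was lower in PS than in IF by -6.03 ± 1.37 (SE, log2 scale, edgeR adjusted p of 0.0398) and in IFPS than in IF by -5.75 ± 1.36 (adjusted p of 0.0412). The gene higher in IFPS stood at 0.0443 to 1.71 CPM in IF tumors and at 6.05, 3.04 and 0.938 CPM in IF pads, while IFPS tumors held 0 to 122 CPM and IFPS pads 0.0375 to 2.45 CPM. Its difference was 8.57 ± 1.91 (adjusted p of 0.0316). The last gene held 20.5 to 39.9 CPM in IF tumors and 0 to 3.18 CPM in IFPS tumors, with 3.53 to 15.6 CPM in IF pads and 4.88 to 18.6 CPM in IFPS pads, a difference of -5.10 ± 1.19 (adjusted p of 0.0386). Every IF tumor lay above every IFPS tumor for this gene. None of the 3 calls held when IF pad 1, 2 or 3 was left out.

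Pads of the mutated lines were compared with wildtype pads with the set of title numbers as a covariate. Of the 289 genes tested 0 were called higher or lower in IF, PS or IFPS by edgeR at an adjusted p under 0.05, and 0% to 0.0061% of all genes were called. Unadjusted p lay under 0.05 for 5 genes in IF, 92 in PS and 22 in IFPS. These are 1.73%, 31.8% and 7.61% of the 289, against 1.87%, 10.2% and 7.92% of all genes. DESeq2 called 2 of the 289 genes higher in PS, and 39 of all genes. Median log2 fold changes were -0.04 in IF, 0.39 in PS and 0.19 in IFPS. Over all genes tested the medians were -0.0085, -0.00025 and 0.0095. Fitted values were above 0 for 120, 256 and 232 of the 289 genes. The shares of all genes above 0 are not given here. Sums in wildtype pads ran from 5291 to 19903 CPM and those in PS pads from 9613 to 23024 CPM, so the groups overlapped.

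Few of these genes were called between MECs of the mutated lines. PS against IF gave 0 higher and 1 lower, with 0.0408% and 0.0272% of all genes called. IFPS against IF gave 0 higher and 4 lower, with 0.511% and 0.231%, and IFPS against PS gave 0 higher and 1 lower, with 0.0204% and 0.0477%. Among the counts of 0 higher, DESeq2 gave 5, 5 and 1, where it called 121, 281 and 71 of all genes higher. The median log2 fold changes were -0.02 for PS against IF and -0.20 for both comparisons of IFPS, with 231 and 244 of the 308 genes below 0. Over all genes tested the medians were -0.0041 for PS against IF, and -0.0036 and -6.5e-05 for IFPS against IF and PS. The shares of all genes below 0 are not given here. Unadjusted p lay under 0.05 in either direction for 33, 66 and 41 genes, or 10.7%, 21.4% and 13.3%, against 10.6%, 14.9% and 10.5% of all genes.

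A single gene accounted for 2 of these calls. It stood at 8.46, 5.96 and 6.85 CPM in IFPS MECs, at 59.2, 44.9 and 36.7 CPM in IF MECs and at 64.7, 60.7 and 80.3 CPM in PS MECs, with no overlap of IFPS and the other lines. It was lower in IFPS by -2.73 ± 0.24 (SE, log2 scale, edgeR adjusted p of 0.00102) against IF and by -3.28 ± 0.24 (adjusted p of 0.000154) against PS. Wildtype MECs held 2.88 to 6.07 CPM of it, which the rule used. In IFPS tissue it ranged from 69.0 to 208 CPM in pads and from 0.0549 to 7522 CPM in tumors. The gene called in PS against IF is the one at 468 CPM in wildtype MECs, with 256, 261 and 243 CPM in PS MECs and 498, 628 and 566 CPM in IF MECs, a change of -1.16 ± 0.17 with an adjusted p of 0.0481. ENSRNOG00000036877 was among the genes lower in IFPS than in IF MECs, with 29.9, 23.9 and 38.0 CPM against 54.3, 111 and 113 CPM, a change of -1.60 ± 0.27 with an adjusted p of 0.0383.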

How the data were processed

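Poly(A) RNA of 80 rat libraries was sequenced as paired reads. The authors deposited a table of raw gene counts; reads were trimmed with Trim Galore and aligned with STAR 2.5.2b to Rnor_6.0, per the submitters' processing notes. The counter, annotation and strand setting are not given in the sources used here, so overlapping or antisense genes cannot be told apart. Library totals were 17344717 to 37293141 counts. No pair of libraries of a group agreed within sampling noise (166 pairs, smallest chi-square per degree of freedom 8.70). None of the identifiers matched a symbol in a reference table of 47357 genes (0 matched), so lists by role, promoters and proteins were not used here.

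Levels are plain CPM. Tests used edgeR 4.0.16 (R 4.3.3) with TMM scaling, filterByExpr, the quasi-likelihood F test and Benjamini-Hochberg adjustment over all genes tested, with calls at an adjusted p under 0.05. One fit took pads and tumors of the 3 mutated lines, one all pads with the set of title numbers (1 to 12, 13 to 21) as covariate, one the MECs, and one the cell types of the mutated lines. The standard error is the absolute log2 fold change divided by the square root of the F statistic. The procedure was tested on simulated counts. Alternatives were DESeq2 1.42.0, RLE scaling, no filter, other limits of the rule, subsets of pads or groups, a replicate block and leaving out each library. Fits without IFPS tumors 6, 8 and 9 and without IF adipocytes 1 and 3 were chosen after seeing the data. The choice used the levels of the MEC-enriched genes themselves. Deviations of MEC and fibroblast samples with one title number correlated at 0.114 to 0.289 in 9 of 9 pairs. In 9 of 9 the best match was the sample's own number. For adipocytes 1 of 9 correlations was above 0.1, and in 6 of 9 the best match was the sample's own number. The title number entered only the alternative fit with a replicate block, and the main fits did not pair samples. The identifiers named are those called in most lines in one direction, 2 higher and 2 lower, ranked by their smallest absolute change. The genes, lists and rules were chosen with earlier results of these data known.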

Additional observations from a re-analysis of the deposited data

Results flagged for a closer look

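Of 54 values per group examined for a sample far from the others, 16 held one. The limit of this check stands for 1 in 20 only in normal and independent values. These levels are skewed and several describe the same genes, so 16 cannot be set against chance. IFPS pad 6 had the lowest median level of MEC-enriched genes of its group, 7.73 CPM with the next at 13.9 CPM, and the fewest of them at 1 CPM, 251 with the next at 262. It also had the highest sum of adipocyte-enriched genes among IFPS pads, 77594 CPM with the next at 46058 CPM. IF tumor 2 had the fewest MEC-enriched genes at 1 CPM of the IF tumors, 241 with the next at 261, and 6832 CPM of fibroblast-enriched genes with the next at 283 CPM. IFPS tumor 6 held 95266 CPM of adipocyte-enriched genes with the next IFPS tumor at 16053 CPM. Fibroblast-enriched genes stood at 7392 CPM in IFPS tumor 5 with the next at 3016 CPM, at 1152 CPM in IFPS pad 4 with the next at 684 CPM, and at 1376 CPM in PS pad 3 with the next at 690.5 CPM.

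Single libraries also led for 3 of the named genes. ENSRNOG00000036877 stood at 41.5 CPM in IF tumor 1 with the next at 4.62, at 4.22 CPM in PS tumor 8 with the next at 1.66, and at 2.21 CPM in IFPS tumor 7 with the next at 0.270. In pads it stood at 0.272 CPM in wildtype pad 6 with the next at 0.0825, and at 0.0839 CPM in IFPS pad 5, where the others held 0. ENSRNOG00000030318 stood at 0.998 CPM in IF tumor 3 with the next at 0.110. ENSRNOG00000017686 stood at 47.5 CPM in wildtype pad 6 with the next at 32.8.

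The tumor-pad difference differed between lines for 3 genes by a test of the difference itself. It was lower in PS than in IF by -6.03 and in IFPS than in IF by -5.75 on the log2 scale for one gene, which was abundant in all 5 IF tumors. For another it was higher in IFPS than in IF by 8.57, and for the last it was lower by -5.10. The edgeR adjusted p were 0.0398, 0.0412, 0.0316 and 0.0386. The causes were not tested.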

How the results depend on the processing

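No fold change of a named gene changed direction, and the counts of genes called were within 1.5 times of those reported in 182 of the comparisons of result and setting and outside this in 80. Counts are given as higher and lower where both moved. The causes were not tested, except that other limits of the rule change the number of genes. Without IFPS tumors 6, 8 and 9 the tumor-pad counts were 163 and 8 in IF, 213 higher in PS and 203 higher in IFPS, and the differences between lines 10 and 12 for PS against IF and 13 and 16 for IFPS against IF. With only the 2 groups compared, 125 genes were higher in IF, 211 in PS and 22 in IFPS, with 5 lower in IFPS. In these fits 3 and 1 were higher in IFPS MECs against IF and PS, and 0 were lower in IF MECs against adipocytes. Shares of all genes are not given here for fits of 2 groups, RLE scaling or no filter. Their counts therefore cannot be read as a result about these genes alone. With pads 1 to 12 the counts were 12 and 2 in IF, 9 higher in PS, 2 and 3 in IFPS, and 0 in the differences of IFPS or PS against IF. With pads 13 to 21 PS gave 22 and 4, and IFPS gave 9 and 2. DESeq2 gave 68 higher in IF tumors, 2 higher in PS pads, 5 and 3 in MECs of PS against IF, 5 and 16 of IFPS against IF, 1 and 3 of IFPS against PS, and in the differences 6 and 4 for PS against IF, 6 and 15 for IFPS against IF and 2 higher for IFPS against PS. Of all genes DESeq2 called 2625 higher in IF tumors and 39 higher in PS pads. In the MEC comparisons it called 121 and 94, 281 and 199, and 71 and 62 of all genes, in the same order. In the differences these counts were 61 and 192, 301 and 291, and 200 higher. RLE scaling gave 0 lower in PS against IF MECs. Without a filter 2 were lower in IF tumors, 1 was higher in MECs of IFPS and 1 of PS against IF, and 0 were lower in the differences of IFPS or PS against IF.

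At an 8-fold limit of the rule 51 genes were higher and 9 lower in IF tumors, 18 lower in PS and 15 lower in IFPS, and 2 lower in the difference of PS against IF. MEC counts at 8-fold were 472 in IF and 470 in PS against fibroblasts, 473 in the IFPS comparisons and in PS against adipocytes, and 8 lower in IF against adipocytes. At a 32-fold limit they were 149 higher and 0 lower in IF against adipocytes and 159 in the other cell comparisons, and in tumors 14 and 2 in IF, 56 and 3 in PS and 33 and 3 in IFPS. Lower at 32-fold were 1 and 0 genes in IFPS MECs against IF and PS, and 1 and 0 in the differences of IFPS and PS against IF. At 10 CPM or more these 4 counts were 2, 0, 0 and 0.

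Without 1 library the higher counts in tumors ranged from 4 to 67 in IF, 72 to 169 in PS and 37 to 96 in IFPS. The lower counts ranged from 1 to 5, 7 to 11 and 4 to 12. Shares of all genes are not given here for the fits without 1 library. Differences ranged from 0 to 3 higher and 0 to 3 lower for PS against IF and from 0 to 2 and 0 to 4 for IFPS against IF. In MECs, IFPS against IF ranged from 0 to 2 higher and 1 to 5 lower, PS against IF from 0 to 1 lower, and IF against adipocytes from 271 to 292 higher and 0 to 7 lower. With the genes chosen without 1 wildtype cell library, the tumor counts were 26 to 29 and 4 to 5 in IF, 105 to 118 and 8 to 10 in PS and 49 to 56 and 7 to 10 in IFPS, and 1 to 2 were lower in the difference of PS against IF. With the replicate block, or without IF adipocytes 1 and 3, 0 genes were lower in IF MECs against adipocytes, and with the block all 308 were higher than fibroblasts in each line. The named genes lost a call in 14 of the comparisons of gene and setting and were unchanged in 63. The 63 include ENSRNOG00000030318 in IF, which was not called in the main fit either. The floor of 3 counts is 0.0804 to 0.173 CPM over the libraries, so changes of genes at that level in pads or tumors cannot be sized.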
